A study of Mus musculus with 8 samples.

Results

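Pknox1 encodes Prep1, a DNA-binding protein whose homeodomain is of the TALE kind, named for an extended loop of amino acids. The genes followed here are Pknox1, its paralog Pknox2, the PBC-class partners Pbx2 and Pbx3, the MEIS-class genes Meis1 and Meis2, the TGIF repressor genes Tgif1 and Tgif2, and Mybbp1a, which encodes p160, a protein that binds Prep1. They were chosen by name, with earlier results of these data known. No measured value was used to pick probes: every non-control probe that the array design assigns to one of these 9 genes was taken. These were 17 of 41174 probes, for 9 of 27398 gene names. Pknox2, Pbx3 and Meis2 have 3 probes each, Pbx2 and Meis1 have 2 each, and the other 4 genes have 1 each. A probe was tested when its signal was well above background, by the scanner software's own call, on at least 4 of the 8 arrays. In all, 24488 probes met this condition, among them 14 of the 17 probes and 8 of the 9 genes, all but Tgif1.

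The RNA was from tibialis anterior muscle, which in the mouse is made mostly of fast fibres. The animals were C57BL/6 males of 8 weeks. The Prep1deltaSM group (n = 4) carries an ablation of Prep1 in skeletal muscle, and the Prep1f/+ group (n = 4) carries a floxed Prep1 allele; the design text calls the control animals Prep1 flox mice. The driver of the recombination, and whether the control mice carry a recombinase, are not given in the sources used here. Each mouse was measured on 1 single-colour Agilent array, and each of 4 slides held 1 mouse of each group.

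TALE proteins bind DNA together. Prep and Meis proteins pair with Pbx proteins, and the pairing keeps Pbx in the nucleus and widens the set of sites that both can recognise, often beside Hox proteins. Prep1 also binds p160, a nucleolar and nuclear protein that represses the metabolic coactivator PGC-1alpha, so that Prep1, Pbx and p160 have been studied together as regulators of muscle metabolism. The TGIF proteins belong to the same homeodomain class but act as corepressors of TGF-beta and retinoid signalling.

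All values rest on 60-base probes that read a short stretch of each transcript, and the probes for Pknox1, Pknox2, Pbx2, Meis1 and Mybbp1a that the results turn on are printed so that these stretches can be seen. Each is given 5′ to 3′ in the sense of the transcript, as its first 30 bases for Pknox1, Pknox2 A_52_P6442 and Pbx2 A_51_P246471 and whole for the others. Capitals mark only the codons that match the helix signature, a part of the recognition helix of the homeodomain. A search of the sense frames found this signature in 1 of the 17 probes and in 9 of all 41174 (0.0219%).
Pknox1 A_52_P431894: tttctgctttcttgattccagattgtcaaa
Pknox2 A_52_P6442: tcttctggttcatttttcttgttaaagtac
Pknox2 A_52_P637756: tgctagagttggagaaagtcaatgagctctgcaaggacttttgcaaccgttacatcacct
Pbx2 A_51_P246471: tggacaagagtgtctgactcggatatctac
Pbx2 A_52_P339182: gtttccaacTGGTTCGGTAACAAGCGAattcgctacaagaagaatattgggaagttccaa
Meis1 A_52_P670612: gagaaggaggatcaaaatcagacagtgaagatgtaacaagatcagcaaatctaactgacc
Mybbp1a A_51_P332627: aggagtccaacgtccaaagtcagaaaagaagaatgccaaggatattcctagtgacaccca

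The members share protein domains, but their probes are distinct in sequence. The longest run of bases, on either strand, that any of the 17 probes shares with a probe of another member is 10, between Tgif1 and Pknox2 A_52_P637756. The Pknox1 probe shares no run longer than 8 bases with another member, and at most 14 with any other gene's probe on the array. It begins at base 3840 of its reference transcript and lies at chr17:31744266-31744325 on the plus strand in mm9, the build of the files. Whether this stretch lies inside the floxed part of the gene is not given in the sources used here. Pbx2 is carried on the same chromosome, with its brighter probe at chr17:34733355-34733414, 2.99 Mb from that of Pknox1, and the Tgif1 probe lies 39.45 Mb away.

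The Pknox1 transcript was clearly lower in Prep1deltaSM muscle and was still detected there. The processed signal, in intensity units after background subtraction, was 155, 127, 170 and 97.6 in Prep1f/+ mice 1 to 4, and 53.0, 46.6, 39.8 and 42.3 in Prep1deltaSM mice 1 to 4. Every Prep1deltaSM mouse lay below every Prep1f/+ mouse. The weakest signals called well above background on the 8 arrays were 5.39 to 8.11, so the Prep1deltaSM values lay several times above the detection limit. In bulk muscle RNA, fewer cells of a type and less RNA per cell cannot be told apart.

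**Figure D1:**
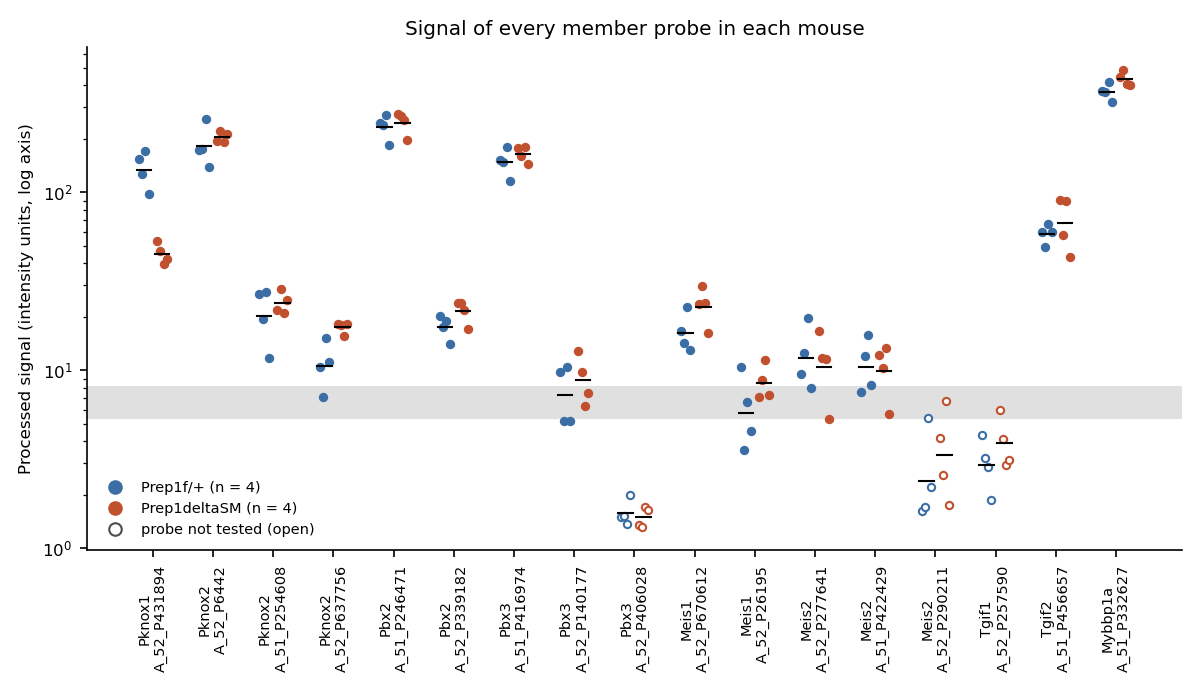
Processed signal (intensity units, log axis) of every member probe in each of the 8 mice; black bars are geometric means, open circles are the 3 probes that were not tested, and the grey band spans the weakest signals called well above background on the arrays (5.39 to 8.11). Pknox1 shows the 4 Prep1deltaSM mice (39.8 to 53.0) below the 4 Prep1f/+ mice (97.6 to 170).

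For tests, each log2 signal was expressed as its distance from the array's 75th percentile, and p-values measure the spread between mice. On this scale Pknox1 averaged -0.28 ± 0.18 (SD, n = 4) across the Prep1f/+ mice. The Prep1deltaSM mice averaged -2.04 ± 0.19 (SD, n = 4). The difference of -1.76 ± 0.13 (SE; 95% interval -2.05 to -1.47; limma adjusted p = 0.0102 over all 24488 probes) leaves 29.5% of the Prep1f/+ level, with an interval of 0.241 to 0.362 for the ratio. It ranked first by p among all tested probes, and was the 1 probe past an adjusted p of 0.05, a share of 0.00408% of those tested. The exact two-sided permutation p was 0.0286, the smallest that 70 assignments can give. These assignments ran over all arrays without regard to slide, here and for the exact permutation p-values below.

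The fall was alike on every slide, at -1.54, -1.87, -1.87 and -1.77, but the adjusted p depended on the arrays and settings used. It was 0.0948 with slide as a block, 0.0513 when dim probes were tested too, and 0.0543 without Prep1f/+ replicates 1 and 4, which stood apart on the first principal component. It rose to 0.0558, 0.0914 and 0.0889 without Prep1f/+ replicate 1, 2 or 3, and to 0.105 without Prep1deltaSM replicate 2. The size of the difference stayed between -1.84 and -1.68 with any 1 array left out. With quantile normalization alone in place of the percentile it was -1.75. It shrank to -0.89 when normexp, with an offset of 50 added to every signal, came before quantile normalization. The limma adjusted p was then 0.00222.

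The tissue carried the markers of fast muscle, and no marker of any cell type listed passed an adjusted p of 0.05 by limma. All 8 fast muscle markers were well above background, and their summed signal, relative to the 75th percentile, was 10300 to 12500 in Prep1f/+ and 10900 to 11900 in Prep1deltaSM. For satellite cells, the stem cells of muscle, 4 of 5 markers were tested, and their sum was 7.24 to 7.76 in Prep1f/+ and 4.51 to 5.76 in Prep1deltaSM, without overlap. The members were mixed, with 3 lower and 1 higher (median difference -0.15; 1 of them at an unadjusted p under 0.05). The sum of the 4 smooth muscle markers was 158 to 211 in Prep1f/+ and 223 to 254 in Prep1deltaSM, also without overlap, with 3 members higher and 1 lower (median 0.26; 2 at an unadjusted p under 0.05). The sums of the other types overlapped: those of 6 fibroblast markers were 233 to 354 and 174 to 366, and those of 5 endothelial markers 21.5 to 34.4 and 22.3 to 26.0. Those of 4 of 5 adipocyte markers were 133 to 164 and 101 to 161, those of 4 of 5 leukocyte markers 0.954 to 1.32 and 0.603 to 1.04, and those of 4 Schwann cell markers 2.03 to 4.93 and 2.30 to 2.95. Although these sums overlap, all 4 adipocyte markers had a negative difference (median -1.06; 0 at an unadjusted p under 0.05), as had all 4 leukocyte markers (median -0.45; 1 at that threshold) and 5 of 6 fibroblast markers (median -0.42; 3 at that threshold). At an unadjusted limma p under 0.05, 9.66% of all tested probes were higher and 8.09% lower. A negative difference was found for 13259 of all 24488 tested probes. For single probes, the groups did not overlap in 6.43% that were higher and 5.35% that were lower. Of the defining markers, Myf5 (satellite cells), Itgam (leukocytes) and Lep (adipocytes) were well above background on too few arrays to be tested. The part of these cells in the Pknox1 signal that remained was not tested.

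Of the other 13 tested probes of the relatives and of p160, none passed an adjusted p of 0.05 by limma, and 1 had an unadjusted p under 0.05. That probe belongs to Pknox2 and was higher in Prep1deltaSM; over all tested probes 9.66% were higher and 8.09% lower at this threshold, so 1 of 13 lies near the background. The groups did not overlap for the same Pknox2 probe alone among the 13, against 6.43% of all tested probes that were higher without overlap and 5.35% that were lower. Including Pknox1, 8 of the 14 probes had a positive difference and 6 a negative one, with a median of 0.03 against -0.02 for all tested probes.

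**Figure D2:**
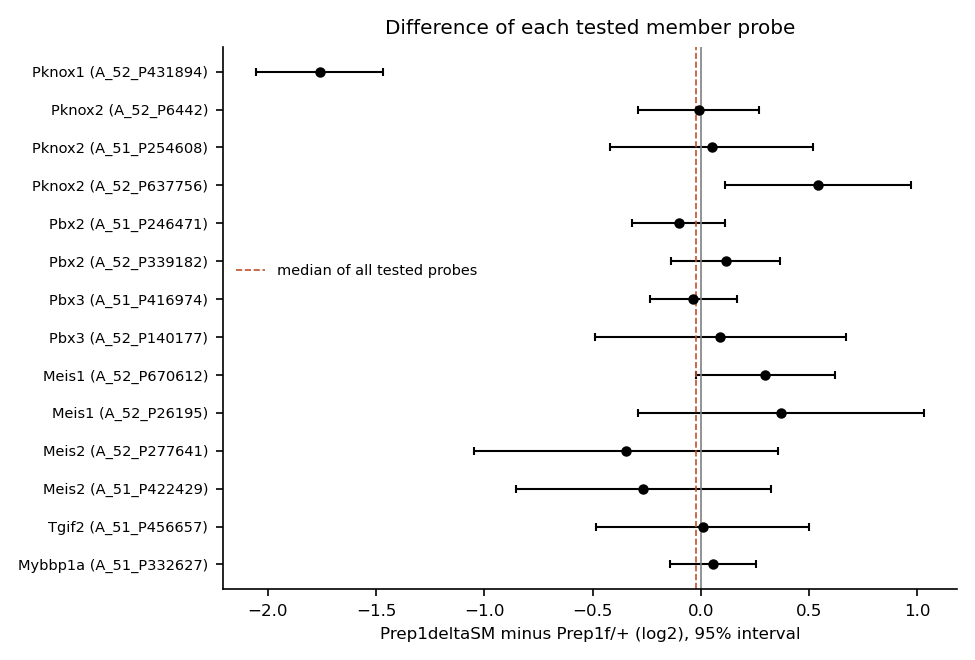
Difference between the groups for each of the 14 tested probes (log2, Prep1deltaSM minus Prep1f/+, points with 95% intervals from limma); the dashed line is the median of all 24488 tested probes (-0.02). The interval of Pknox1 (-2.05 to -1.47) lies apart from those of all other probes, and only that of Pknox2 A_52_P637756 (0.11 to 0.97) otherwise leaves out 0.

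Pknox2, which encodes Prep2 and is the nearest paralog of Pknox1, had 3 tested probes, none past a limma adjusted p of 0.05. Their differences were -0.01, 0.05 and 0.54. By the brightest, A_52_P6442, which begins at base 3247 of the reference transcript, the log2 values were 0.06, 0.16, 0.38 and 0.00 in Prep1f/+ mice and 0.04, 0.17, -0.01 and 0.37 in Prep1deltaSM mice. These values overlap almost completely. The difference was -0.01 ± 0.12 (SE; 95% interval -0.29 to 0.27; limma adjusted p = 0.973), which bounds a change of this stretch between 0.817 and 1.21 of the Prep1f/+ level.

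The dim Pknox2 probe A_52_P637756, which begins at base 657 of the same transcript, read -3.97, -4.46, -3.70 and -3.65 in Prep1f/+ and -3.38, -3.45, -3.62 and -3.17 in Prep1deltaSM. All Prep1deltaSM mice lay above all Prep1f/+ mice, by the narrow margin of Prep1deltaSM mouse 3 over Prep1f/+ mouse 4. The difference was 0.54 ± 0.19 (SE; limma unadjusted p = 0.0197, adjusted p = 0.2; exact two-sided permutation p = 0.0286), a ratio of 1.45, and it ranked 2416th of all tested probes.

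The signals of this probe were 7.13 to 15.2 in Prep1f/+ and 15.7 to 18.3 in Prep1deltaSM, close to the detection limit, and 1 Prep1f/+ array did not read it well above background. Within slides 1 to 4 the difference was 1.08, 0.24, 0.80 and 0.03. It was 0.53 with quantile normalization alone and 0.10 with normexp (offset 50) before it. The range was 0.10 to 0.62 over all settings that kept every array, and 0.37 to 0.64 with any 1 array left out. Among 3045 other tested probes of like level, within 0.5 log2, 7.85% had a larger positive difference. The remaining Pknox2 probe, A_51_P254608, which was designed on a separate cDNA, differed by 0.05 ± 0.21 (SE; limma adjusted p = 0.927). It lies at chr9:36730818-36730877, nearer the dim probe (chr9:36731264-36731323) than the brightest one (chr9:36698752-36698811). It was well above background on 4 arrays of each group.

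Pbx2 and Pbx3 encode the PBC-class proteins with which Prep1 pairs. The brighter Pbx2 probe read 0.58, 0.60, 0.46 and 0.40 in Prep1f/+ and 0.53, 0.45, 0.40 and 0.26 in Prep1deltaSM. Prep1deltaSM mice 3 and 4 lay below all Prep1f/+ mice, mouse 3 only narrowly, and the other Prep1deltaSM mice lay among them. The difference was -0.10 ± 0.09 (SE; 95% interval -0.32 to 0.11; limma adjusted p = 0.599), and it was negative on all 4 slides, at -0.07, -0.01, -0.33 and -0.01 on slides 1 to 4. The share of all tested probes with the same sign on every slide was not counted.

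The Pbx2 probe over the homeodomain codons read -3.03, -3.17, -3.38 and -3.31 in Prep1f/+ and -2.98, -3.04, -3.14 and -3.27 in Prep1deltaSM. The groups overlap. Its difference was 0.11 ± 0.11 (SE; 95% interval -0.14 to 0.36; limma adjusted p = 0.616), opposite in sign to that of the brighter probe. Both intervals hold 0, so neither sign is established for the gene.

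For Pbx3 the bright probe A_51_P416974 had the smallest SE of all members after that of Mybbp1a. It read -0.11, -0.08, -0.12 and -0.26 in Prep1f/+ and -0.10, -0.30, -0.11 and -0.20 in Prep1deltaSM. The groups overlap, with Prep1deltaSM mouse 2 the lowest. The difference was -0.03 ± 0.09 (SE; 95% interval -0.23 to 0.16; limma adjusted p = 0.864), which bounds the ratio between 0.85 and 1.12. A dim Pbx3 probe, A_52_P140177, was well above background on 2 arrays of each group and differed by 0.09 ± 0.25 (SE). The third, A_52_P406028, was at background on all 8 arrays, with signals of 1.31 to 1.99, and was not tested.

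Meis1 and Meis2 encode the MEIS-class relatives, which compete with Prep1 for the same Pbx partners. The brighter Meis1 probe read -3.30, -3.46, -3.12 and -3.41 in Prep1f/+ and -3.00, -2.73, -3.02 and -3.35 in Prep1deltaSM. Mice 1 to 3 of Prep1deltaSM lay above all Prep1f/+ mice, and Prep1deltaSM mouse 4 lay among them. The difference was 0.30 ± 0.14 (SE; 95% interval -0.02 to 0.62; limma adjusted p = 0.316; exact two-sided permutation p = 0.0857).

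On slides 1, 2 and 4 this Meis1 difference was 0.45, 0.39 and 0.39, and on slide 3, which holds Prep1deltaSM mouse 4, it was -0.04. Over all arrays it was 0.29 with quantile normalization alone and 0.06 with normexp (offset 50) before it. The other Meis1 probe, A_52_P26195, had a difference of 0.37 ± 0.29 (SE; limma adjusted p = 0.536), also higher on slides 1, 2 and 4 and lower on slide 3 (-0.51). Its difference was 0.15 without Prep1f/+ replicate 2 and 0.64 without Prep1f/+ replicate 1 (limma adjusted p = 0.203). It was 0.36 with quantile normalization alone and 0.02 with normexp (offset 50) before it. This probe was well above background on 2 Prep1f/+ and 3 Prep1deltaSM arrays. Its group-centred values correlated weakly with those of the brighter probe (r = 0.168 over 8 arrays).

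The Meis2 differences were negative and did not pass the test. Its brightest probe, A_52_P277641, read -4.10, -3.65, -3.31 and -4.14 in Prep1f/+ and -3.52, -4.06, -4.06 and -4.95 in Prep1deltaSM. Prep1deltaSM mouse 4 was lowest, and the other 3 Prep1deltaSM mice lay among the Prep1f/+ mice. The difference was -0.35 ± 0.31 (SE; 95% interval -1.05 to 0.35; limma adjusted p = 0.586), and -0.08 without Prep1deltaSM replicate 4.

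The second Meis2 probe, A_51_P422429, begins at base 2431 of the reference transcript, just before the first at base 2495, and differed by -0.27 ± 0.26 (SE; limma adjusted p = 0.62), or -0.06 without Prep1deltaSM replicate 4. Since these probes lie side by side on the same transcript, they are not separate evidence; their group-centred values correlated at r = 0.867 over 8 arrays. The third Meis2 probe, A_52_P290211, was at background on all arrays, with signals of 1.63 to 6.71.

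**Figure D3:**
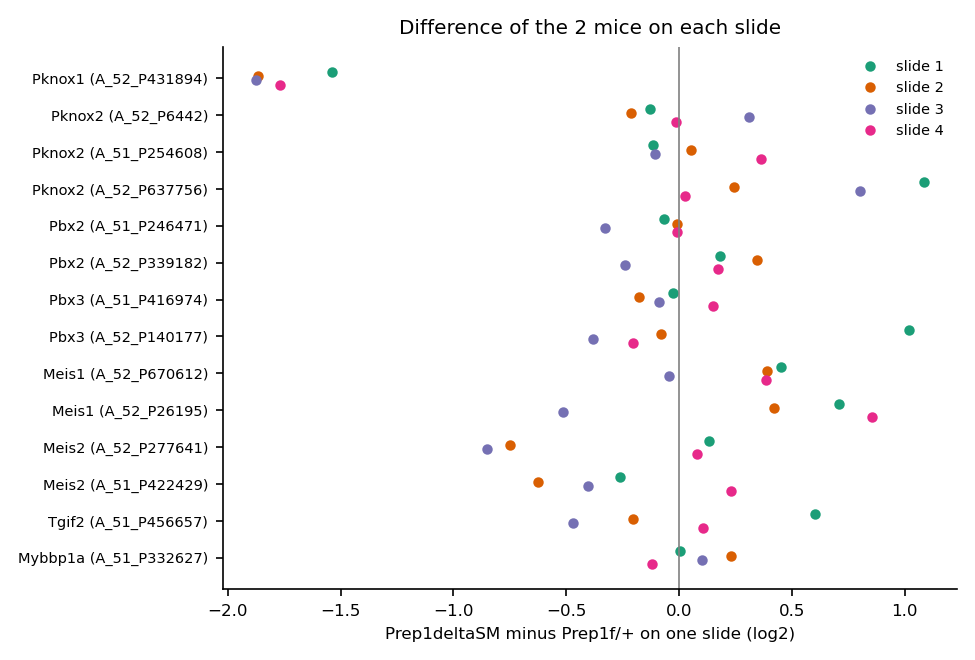
Difference between the Prep1deltaSM and the Prep1f/+ mouse on each of the 4 slides (log2), for the 14 tested probes. Pknox1 lies between -1.87 and -1.54 on every slide, while for the other probes the slides fall on both sides of 0, except Pbx2 A_51_P246471 below 0 and Pknox2 A_52_P637756 above 0 on all 4. The share of all tested probes with the same sign on every slide was not counted.

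The TGIF repressors were weakly expressed or variable. Tgif2 read -1.47, -1.67, -1.56 and -1.21 in Prep1f/+ and -1.07, -1.76, -1.11 and -1.94 in Prep1deltaSM. The Prep1deltaSM mice split, with mice 1 and 3 above and mice 2 and 4 below all Prep1f/+ mice, so that the SD was 0.45 against 0.20 in Prep1f/+. The difference was 0.01 ± 0.22 (SE; 95% interval -0.48 to 0.50; limma adjusted p = 0.989). Tgif1, by its only probe at chr17:71194438-71194497 on the minus strand, was not well above background on any array, with signals of 1.86 to 4.35 in Prep1f/+ and 2.95 to 5.97 in Prep1deltaSM, so no fold is given.

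Mybbp1a, the gene of the p160 partner, had the smallest SE of the members. It read 1.18, 1.23, 1.08 and 1.20 in Prep1f/+ and 1.23, 1.31, 1.08 and 1.28 in Prep1deltaSM. The groups overlap, with all 8 mice between 1.08 and 1.31. The difference was 0.06 ± 0.09 (SE; 95% interval -0.14 to 0.25; limma adjusted p = 0.772), which bounds the ratio of p160 transcript between 0.906 and 1.19. It was 0.02 to 0.10 with any 1 array left out, and 0.01, 0.23, 0.10 and -0.12 on slides 1 to 4. The probe covers 162 bases of genome, from chr11:72264268 to 72264429, with 60 bases of sequence, so its sequence is not contiguous on the genome.

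Where a gene had more than 1 tested probe, the gap between its probes within an array shows whether they moved alike, and no scaling of whole arrays changes it. This gap was compared for all 7 such pairs, a comparison added after the data were seen. For Pbx2 the homeodomain probe stood -3.73 ± 0.10 log2 (SD, n = 4) from the brighter probe in Prep1f/+. In Prep1deltaSM the gap was -3.52 ± 0.02 (SD, n = 4). The 4 gaps in Prep1deltaSM, -3.54 to -3.49, lay above the 4 in Prep1f/+, -3.84 to -3.61. The shift of 0.22 had an exact two-sided permutation p of 0.0286, or 0.1 adjusted over the 7 pairs.

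For Pknox2 the gap of the dim probe A_52_P637756 from the brightest probe was -4.10 ± 0.40 (SD, n = 4) in Prep1f/+. In Prep1deltaSM it was -3.55 ± 0.10 (SD, n = 4), a shift of 0.55 with the same exact permutation p of 0.0286 and adjusted value of 0.1. This is the smallest p that the assignments give, and neither pair passed after adjustment. The brightest Pknox2 probe differed by -0.01 and the dim one by 0.54, so this shift is not evidence separate from the dim probe's own difference. The other 5 pairs shifted by 0.06 to 0.49, with exact permutation p from 0.2 to 0.857. The difference was positive in all 7 pairs, 3 of which share probes of Pknox2. When all tested probes were ranked by level into 5 equal classes, the median difference was 0.03 in the dimmest and -0.08 in the brightest class. Its part in the probe gaps was not tested. How often the gaps of same-gene probes lie without overlap over the whole array was not counted. For single probes, the groups did not overlap in 6.43% that were higher and 5.35% that were lower.

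**Figure D4:**
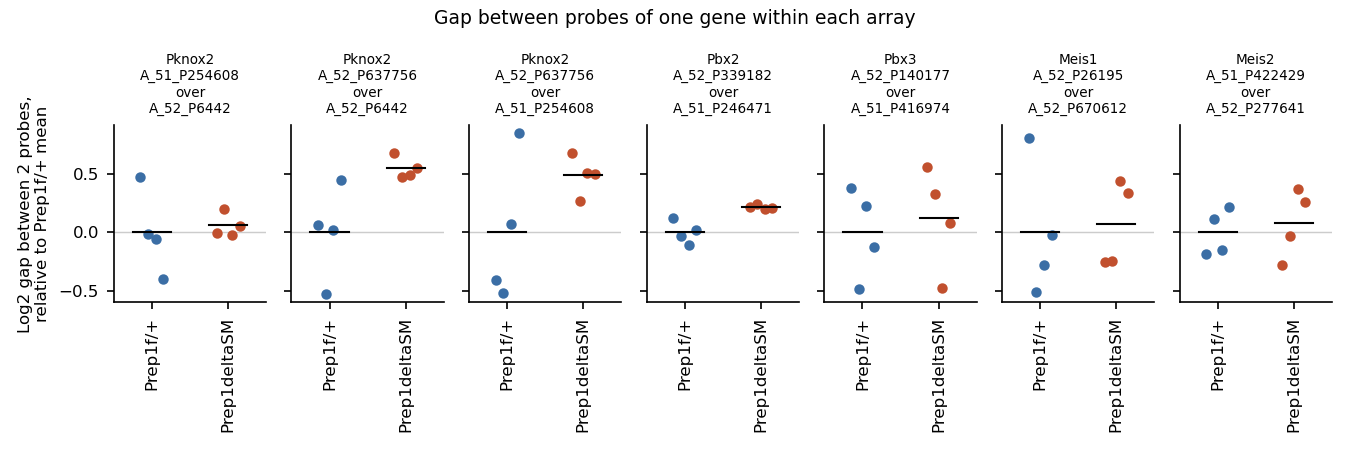
Log2 gap between the dimmer and the brighter probe of the same gene within each array, set to 0 at the Prep1f/+ mean, for the 7 pairs of tested probes; points are mice and bars are group means. The groups do not overlap for Pbx2 (shift 0.22) and for Pknox2 A_52_P637756 over A_52_P6442 (shift 0.55). Neither pair passed after adjustment, and the share of same-gene pairs without overlap over the whole array was not counted.

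The table of values that the authors deposited holds some of these probes apart and merges others. Its rows, named by 1 probe, matched the quantile-normalized signal of that probe to 0.1 log2 for 80.2% of rows, and the linear mean over all probes of the same reference accession for 95.2%. The row named for Pknox2 A_52_P637756 lay up to 3.69 log2 from that probe but within 0.02 of the mean with A_52_P6442, and the brighter probe sets such a mean. In the authors' deposited table that row differed by 0.04 between the groups, and the Pbx2 row, likewise a mean over 2 probes, by -0.07. The rows of Meis1 and Meis2 are also means over 2 probes, with differences of 0.29 and -0.31. The 3 Pbx3 probes and Pknox2 A_51_P254608 have rows of their own, which differed from the probe by at most 0.024 log2. Pknox1 and Mybbp1a have 1 probe for their accession, and their rows in that table differed by -1.76 and 0.10.

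**Figure D5:**
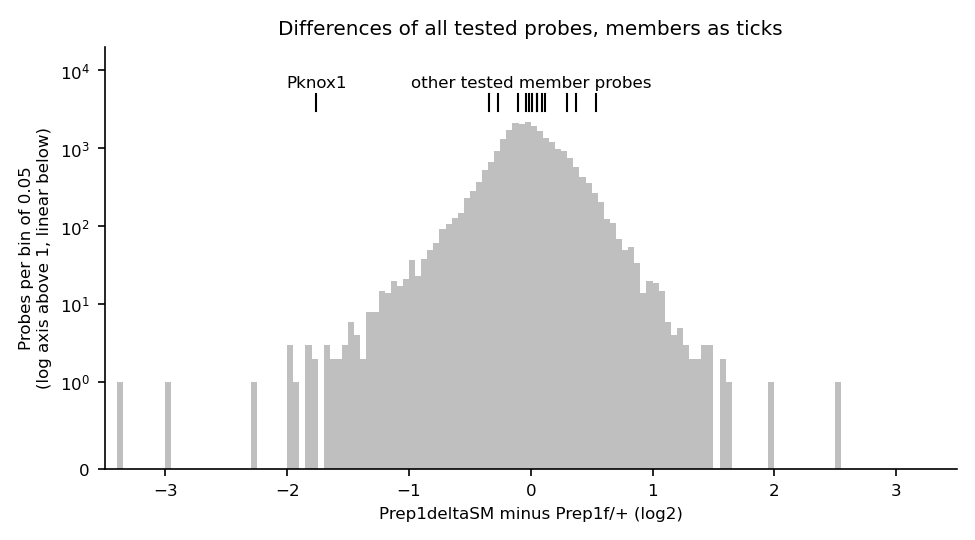
Number of tested probes in bins of 0.05 of the difference between the groups (log2; the vertical axis is logarithmic above 1), with the 14 tested member probes as ticks. Pknox1, at -1.76, lies in the sparse lower tail, and the other 13 lie between -0.35 and 0.54, within the bulk of all probes.

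Other genes of the same class and of the partners of p160 and TGIF were taken from lists of names. Of 10 other TALE and Pbx-interacting genes on the array, 4 were tested, with 4 probes, of which 1 was lower at an unadjusted p under 0.05, against 8.09% of all tested probes, and none passed after adjustment. The median difference of the 4 was -0.25. The 1 probe was that of Pbxip1, whose product binds Pbx proteins and holds them from DNA, at 7.56 ± 0.16 (SD, n = 4) in Prep1f/+. Its level in Prep1deltaSM was 7.28 ± 0.03 (SD, n = 4). The difference was -0.28 ± 0.10 (SE; limma adjusted p = 0.197), without overlap, as for 5.35% of all tested probes that were lower. Meis3, Mkx and Irx4 differed by -0.22, -0.40 and 0.18, with adjusted p of 0.459 to 0.736.

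Among 13 genes of p160 partners and of B-WICH, the chromatin complex that holds p160 at ribosomal genes, 12 were tested with 24 probes. At an unadjusted p under 0.05, 5 probes were higher and 1 was lower, and none passed after adjustment by limma. Over all tested probes 9.66% were higher and 8.09% lower at this threshold, and the median difference of the 24 was 0.04 against -0.02. The B-WICH subunit gene Baz1b was the only one of the 12 with more than 1 probe past this threshold, at 0.33 ± 0.12 and 0.22 ± 0.08 (SE; limma adjusted p = 0.21 and 0.218). Smarca5, the remodelling ATPase, had the probe with the smallest p of the 24, at -0.32 ± 0.08 (SE, limma adjusted p = 0.119). The groups did not overlap for this probe, as for 5.35% of all tested probes that were lower. The other Smarca5 probes were from -0.17 to 0.16.

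Cry1, a clock repressor, was at 0.57 by 1 probe and -0.15 by the other. Rela, a subunit of NF-kappaB, was at 0.33 and -0.01, and Sf3b1, a splicing factor, at 0.43 and 0.25. Ppargc1a, the gene of PGC-1alpha itself, was at 0.30 ± 0.33 and 0.27 ± 0.34 (SE) by its probes, with a Prep1deltaSM SD of 0.74 and 0.75.

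The 9 genes of TGIF partners, the SMAD proteins and corepressors, were tested with 15 probes, of which 2 were higher at an unadjusted p under 0.05 and none lower, against 9.66% and 8.09% of all tested probes. The count of 2 in 15 lies near that background, and the median difference was -0.03. The corepressor gene Ctbp2 was at 0.46 ± 0.11 (SE; limma adjusted p = 0.114) by its dimmer probe and at -0.02 by its brighter one. Skil, a SMAD repressor, was at 0.50 ± 0.21 (SE; limma adjusted p = 0.255) by 1 probe and 0.02 by the other. None of the 15 passed after adjustment.

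After each group was centred on its own mean, the probes most like that of Pknox1 over the 8 arrays were those of Dcxr (Pearson r = 0.968), Klhdc8a (0.955) and the design's sequence NAP027879-1 (0.953), out of 24476 probes compared. These are the highest of many correlations over 8 values and are given as a description. Their differences between the groups were -0.19, -0.18 and -0.05, against -1.76 for Pknox1.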

How the data were processed

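The Prep1 and relative genes, the gene lists and the tests were chosen with earlier results of these data known. The deposited processed intensity was written by Feature Extraction 10.5.1.1 with spatial detrending, per the file headers; version 9.1 is the one in the submitters' processing notes. Of 43379 non-control spots, 23787 to 27123 passed the well-above-background call on each array. Non-uniform spots, 0 to 11 an array, were left out, no spot was saturated, and spots of 1 probe were averaged. Log2 signals were taken relative to the 75th percentile of the array, 139 to 197 intensity units. Every probe was a row of its own, and groups were compared with limma 3.58.1 in R 4.3.3 (lmFit, eBayes), with Benjamini-Hochberg adjustment over 24488 probes; the fit was tested on simulated data. All arrays were scanned on 1 day. The precision rests on 4 arrays a group, each from 1 mouse. The labels do not pair mice, and do not say whether they were littermates. Named genes were all members, the list genes with an unadjusted p under 0.05 (otherwise the 2 smallest) and the 3 probes most like Pknox1; remaining values named beside them were chosen after they were seen.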

Additional observations from a re-analysis of the deposited data

How the results depend on the processing

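Precision is limited by 4 arrays a group and, for the dim probes of Pknox2, Pbx3, Meis1 and Meis2, by signals near background. The Pknox1 difference kept its sign under all alternatives. It no longer passed with no filter on dim probes (-1.76) or with slide as a block (-1.76). In a setting chosen after seeing the data, without Prep1f/+ replicates 1 and 4 together (-1.78), it did not pass either. The difference ranged from -1.84 to -1.68 with each array left out. Of these fits, it did not pass without Prep1f/+ replicate 1, 2 or 3, or without Prep1deltaSM replicate 2. Its rank by p was 3 without Prep1deltaSM replicate 4, and 2 without Prep1f/+ replicates 1 and 4 together. By limma, 1 probe passed an adjusted p of 0.05 after quantile normalization alone and 341 with normexp (offset 50) before it. The count was 33 with array weights and 20 with a trended robust fit. It was 0 with no filter (2244 higher and 2072 lower at an unadjusted p under 0.05) and 0 with slide as a block (2299 and 1955). With each array left out it was 0 to 6 (0 without Prep1f/+ replicate 1, 2 or 3 or Prep1deltaSM replicate 2, 6 without Prep1deltaSM replicate 4). The member probes at an unadjusted p under 0.05 fell from 2 to 1 where the dim Pknox2 probe was not tested, that is, with probes well above background on all arrays, the brightest probe, the mean of probes, or the authors' values. Signs near 0 turned: with normexp to 0.0078 for Pknox2 A_52_P6442, -0.00080 for A_51_P254608 and 0.00090 for Pbx3 A_51_P416974; for A_51_P254608 to -0.064 with array weights and -0.036 without Prep1f/+ replicates 1 and 4; for Tgif2 to -0.0081 with median centring. With each array left out, the ranges were -0.087 to 0.066 for Pknox2 A_52_P6442, -0.13 to 0.18 for A_51_P254608, -0.075 to 0.0061 for Pbx3 A_51_P416974, -0.082 to 0.27 for A_52_P140177 and -0.13 to 0.16 for Tgif2. No paired analysis by replicate number was possible because the labels give mice no shared numbers.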
